A study of Mus musculus with 2 samples.

Results

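The chemokine system of aged hindlimb muscle was described from the 60 gene symbols that carry a chemokine ligand or chemokine receptor name (Ccl, Cxcl, Cx3cl or Xcl, and Ccr, Cxcr, Cx3cr, Xcr or Ackr, each followed by a number). These symbols stand for 66 of the 32285 genes in the count tables, 38 symbols for ligands and 22 for receptors. 11 of the 66 genes share 5 repeated symbols, and only the first copy of each was counted under the name. 54 members had UMIs in the kept cells, and the other 12 genes, with 6 symbols of their own (Cxcr1, Ccl20, Ccl21b, Ccl21c, Ccl27b and Cxcl15), were at 0. 43 members, 27 ligands and 16 receptors, reached 100 UMIs over both libraries, and 42 of them are given below with their values. Cxcl11 was not analysed here.

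Chemokines are small secreted proteins that guide the movement of leukocytes and other cells along gradients. They bind receptors that signal through G proteins, and their effect depends on which cells make a ligand and which carry its receptor. Some are made at a steady level in resting tissue, among them Cxcl12, which holds Cxcr4-bearing cells near vessels, while others are induced by interferon, by tissue damage or by bacterial products. Atypical receptors bind chemokines without G protein signaling and take them up or carry them across cells. In skeletal muscle, fibro-adipogenic progenitors (FAPs), endothelial cells and macrophages are known chemokine sources, and recruited monocytes and neutrophils are receivers.

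Single-cell RNA-Seq (10x Genomics 3-prime) was used to compare hindlimb muscle of 24-month-old female C57Bl/6J mice given 3 intramuscular injections of all-trans retinoic acid (ATRA) with CD3254, an agonist of the nuclear receptor RXR-alpha, and BMS961, an agonist of RAR-gamma (ATRA+agonist), with muscle given the solvent (DMSO vehicle). The 2 mice of each group were pooled into 1 library. There are no replicates and no test, so that each difference below lies between 2 libraries, and treatment, mouse, dissection and library cannot be told apart. The question was which cells make and which receive chemokines, and how their levels differed when the retinoic acid pathway was stimulated.

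After filtering, 6907 ATRA+agonist cells with 41466721 UMIs and 6953 DMSO vehicle cells with 40528708 UMIs remained, with medians of 4672 and 4847 UMIs per cell. The members took up 0.369% and 0.371% of these UMIs. The libraries shared 43 cell barcodes, 9 of them among the kept cells. The 13860 cells fell into 26 clusters, of which 21 could be named after 12 cell classes from marker genes, and none of the members took part in the clustering. The tissue label was checked on muscle stem cells (MuSCs), whose 7 markers, Pax7 among them, were all raised in the largest MuSC-like cluster. A level is given as CPM, the UMIs of a gene per 1000000 UMIs of that class in that library. Where a pair of values stands without a library name, the ATRA+agonist value comes first. A log2 ratio is ATRA+agonist over DMSO vehicle, with an exact 95% interval that covers counting error only and leaves out the spread between mice and between cells. "Rose" and "fell" are used only for a ratio of at least 2-fold whose interval leaves out 0, in a class with at least 50 cells per library and at least 20 UMIs of the gene.

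Red blood cell and muscle fiber transcripts differed between the libraries in most classes. In endothelial-like cells, for instance, the 6 erythroid markers summed to 492 and 1354 CPM and the 9 myonuclei markers to 110.1 and 51.6 CPM. These genes are no members, and their part in the results below was not tested.

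Cxcl9 and Cxcl10, induced by interferon and neighbors on chromosome 5, have the region upstream of the transcription start printed here because their levels differed between the libraries in endothelial-like cells (below) and because interferon and retinoic acid act through known DNA motifs. The 250 bases before the start are given 5' to 3' on the strand of the gene (RefSeq, GRCm38.p6, minus strand), chr5:92328080-92328329 for Cxcl9 and chr5:92348890-92349139 for Cxcl10. Capitals mark AGGTCA, the retinoic acid half-site, in Cxcl9. In Cxcl10 they mark 1 match to the interferon-stimulated response element GAAANNGAAA and 2 matches to the NF-kB motif.
Cxcl9: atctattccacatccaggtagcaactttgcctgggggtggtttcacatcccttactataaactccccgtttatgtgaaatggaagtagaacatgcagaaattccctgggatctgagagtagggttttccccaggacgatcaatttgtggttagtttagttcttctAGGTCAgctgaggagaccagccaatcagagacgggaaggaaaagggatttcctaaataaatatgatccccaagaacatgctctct
Cxcl10: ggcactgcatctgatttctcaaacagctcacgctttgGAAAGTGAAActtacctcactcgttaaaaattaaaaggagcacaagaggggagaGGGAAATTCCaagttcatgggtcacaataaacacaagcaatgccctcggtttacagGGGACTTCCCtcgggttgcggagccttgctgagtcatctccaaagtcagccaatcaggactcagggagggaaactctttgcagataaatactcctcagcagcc

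The half-site of Cxcl9 lies 85 to 80 bases before its start. In Cxcl10 the interferon element lies at 213 to 204 bases and the NF-kB matches at 159 to 150 and at 103 to 94 bases. An upstream sequence was found by symbol for 33 of the 43 members, and for 10, among them Ccl2 and Ccl7, none was at hand. On either strand, GAAANNGAAA was held by 3 of the 33 (Ccl19, Cxcl10 and Cxcl14) and by 2.98% of 32851 promoters of this length, TTCNNNGAA (the gamma-activated site) by 3 (Ccl17, Ccr6 and Cxcl14) and 7.02%, and the NF-kB motif by 6 (Ackr2, Ccl9, Ccr6, Cxcl1, Cxcl10 and Cxcl2) and 3.90%. AGGTCA was in 11 of the 33 members and in 14.02% of all promoters. A direct repeat of AGGTCA spaced by 5 bases, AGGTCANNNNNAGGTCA (overlapping the half-site) was in none of them and in 3 of all promoters (0.00913%). A member was counted where any promoter under its symbol held the motif, while the percentages count each promoter. The shares of members and of promoters are thus not in the same unit. All these matches describe letters and no binding.

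**Figure D1:**
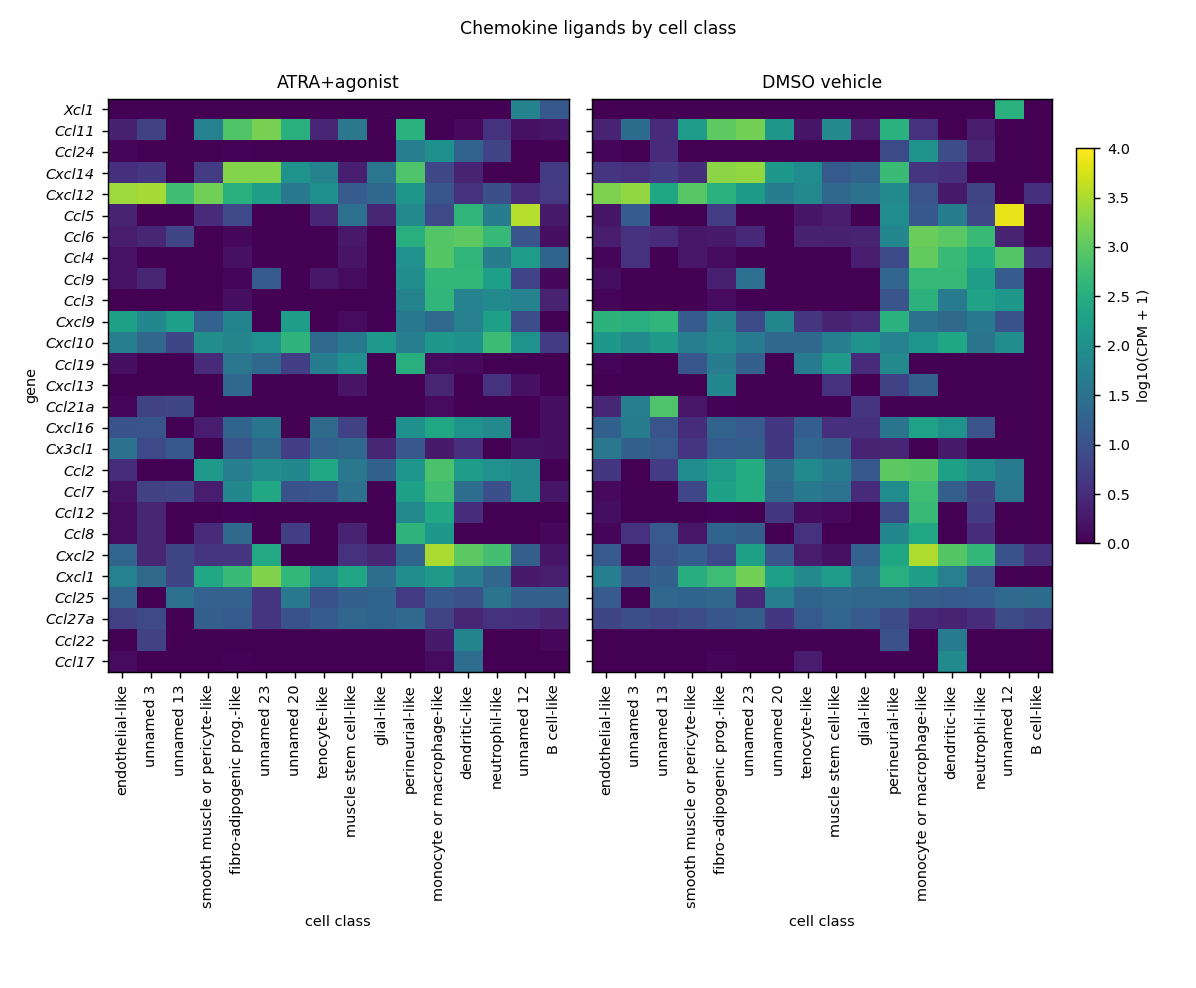
Levels of the 27 chemokine ligands with at least 100 UMIs, as log10(CPM + 1), in each cell class of the ATRA+agonist library (left) and the DMSO vehicle library (right). Cxcl12 is bright in the endothelial columns, Cxcl14 and Ccl11 in the FAP-like column, the CC ligands Ccl3 to Ccl9 and Cxcl2 in the monocyte or macrophage-like column, and Ccl5 in unnamed cluster 12.

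Among the homeostatic ligands, Cxcl12 was an endothelial and pericyte transcript and Cxcl14 a FAP transcript. Cxcl12 (chr6:117168535-117181367, plus strand), the ligand of Cxcr4 and Ackr3, was at 2583 CPM in the ATRA+agonist library and 1601 CPM in the DMSO vehicle library in endothelial-like cells (log2 ratio 0.69, 95% interval 0.66 to 0.72), which held 66.0% of its UMIs. It had a UMI in 95.9% and 89.2% of these cells, and after thinning each cell to 1000 UMIs in 80.4% and 67.3%. The share after thinning in B cell-like cells, which should lack the gene, was 0.465% and 1.39%. Median depth was 3425 and 3585 UMIs in endothelial-like and 5401 and 4400 in B cell-like cells.

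The higher Cxcl12 level in the ATRA+agonist library stood in every endothelial cluster, at 2805 and 2413 CPM in cluster 0 (led by capillary genes such as Gpihbp1 and Aqp1), 2173 and 1345 CPM in cluster 2 (led by interferon-response genes), 1590.3 and 1076 CPM in cluster 14 (led by Sema3g, a gene of arteries) and 879.9 and 505 CPM in cluster 22 (led by Selp and Vwf, genes of veins). The same direction was seen in the unnamed endothelial cluster 3, which is of low depth, with 2896 and 2252 CPM. In smooth muscle or pericyte-like cells Cxcl12 was at 1418 and 919 CPM (log2 ratio 0.63, 95% interval 0.51 to 0.74), with 1614 and 1129 CPM in the pericyte cluster 10 and 609 and 395 CPM in the smooth muscle cluster 21. FAP-like cells, in contrast, held 341 and 360.2 CPM. None of these differences reached 2-fold in a named class, while in the unnamed cluster 13, which carries lymphatic markers, Cxcl12 rose from 233 to 588 CPM (log2 ratio 1.34, 95% interval 0.94 to 1.73).

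Cxcl14, a ligand of resting epithelia and stroma, had 94.4% of its UMIs in FAP-like cells, at 1789 and 2045 CPM (log2 ratio -0.19, 95% interval -0.22 to -0.17). Its level differed more between FAP clusters than between libraries. Cluster 1, led by Smoc2 and Mme, held 2819.6 and 3526 CPM, cluster 5, led by Gdf10, held 1221 and 1144 CPM, and cluster 7, led by Pi16 and Sema3c, held 134 and 160.5 CPM. In MuSC-like cells Cxcl14 fell (log2 ratio -3.36, 95% interval -5.29 to -1.91), from 49 to 4 UMIs, and in glial-like cells it rose (log2 ratio 1.05, 95% interval 0.21 to 1.86), with 22 and 35 UMIs. With putative doublets kept, the glial-like value turned to -0.56 and was no rise. The levels in both classes lay under those in barcodes under 300 genes, hemoglobin left out (70.1 and 47.8 CPM, below). Both classes held under 100 UMIs of it in either library, and the 10 cells with most UMIs held 100% and 87.8% of the MuSC-like and 95.5% and 82.9% of the glial-like UMIs.

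The neutrophil-attracting ligands Cxcl1 and Cxcl2, which act on Cxcr2, came from different cells. Cxcl1 was at 512 and 562 CPM in FAP-like cells (log2 ratio -0.13, 95% interval -0.18 to -0.09), which held 69.2% of its UMIs, and at 235 and 155 CPM in MuSC-like cells. Cxcl2 was a macrophage transcript, with 72.5% of its UMIs in monocyte or macrophage-like cells at 3155 and 3367 CPM (log2 ratio -0.09, 95% interval -0.14 to -0.05). Both differed little between the libraries in their main source. In FAP-like cells, where Cxcl2 was sparse, it fell from 6.96 to 3.29 CPM (log2 ratio -1.08, 95% interval -1.64 to -0.54), but the call was lost with putative doublets kept (-0.34) and for the kept cells in the clusters found with doublets (-0.52). Ccl11 (eotaxin-1), which attracts eosinophils through Ccr3, was made by FAP-like cells at 817 and 1003 CPM (log2 ratio -0.30, 95% interval -0.33 to -0.26), and 86.7% and 84.7% of these cells had a UMI of it. In smooth muscle or pericyte-like cells Ccl11 fell from 161 to 55.7 CPM (log2 ratio -1.53, 95% interval -1.99 to -1.09), with 22 and 47 cells holding a UMI. Ccl24 (eotaxin-2) was a macrophage transcript, at 100.7 and 110.2 CPM, and rose in dendritic-like cells to 17.9 from 7.77 CPM (log2 ratio 1.203, 95% interval 0.40 to 2.09), on 64 and 16 UMIs.

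Ccl2 and Ccl7, ligands of Ccr2 that attract monocytes, fell in FAP-like cells. Ccl7 (chr11:82045712-82047525, plus strand), with most of its UMIs in FAP-like cells (43.6%), was at 70.2 CPM in the ATRA+agonist library and 193 CPM in the DMSO vehicle library (log2 ratio -1.46, 95% interval -1.57 to -1.35), and Ccl2 (chr11:82035571-82037453, plus strand), its neighbor, at 50.8 and 163 CPM (log2 ratio -1.68, 95% interval -1.81 to -1.56). The UMIs were spread over 247 and 465 cells for Ccl7 and 167 and 283 cells for Ccl2, and the 10 cells with most UMIs held 31.7% and 23.8% and 50.2% and 48.2% of them. After thinning to 1000 UMIs, 4.28% and 10.8% of FAP-like cells had a UMI of Ccl7, against 0.0543% and 0% (0 of 1894 cells, which allows up to 0.158%) of endothelial-like cells, and for Ccl2 the shares were 2.80% and 6.52% and 0.109% and 0.211%. Median depth was 9899 and 7944 UMIs in FAP-like and 3425 and 3585 in endothelial-like cells, and without thinning 19.2% and 29.7% (Ccl7) and 12.996% and 18.1% (Ccl2) of FAP-like cells had a UMI.

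By cluster, Ccl7 was lower in the ATRA+agonist library in all 3 FAP clusters, at 63.97 and 240.03 CPM in cluster 1, 66.7 and 135 CPM in cluster 5 and 86.6 and 167 CPM in cluster 7. Ccl2 differed in cluster 1 (46.9 and 230.03 CPM) and cluster 7 (53.1 and 151 CPM) and hardly in cluster 5 (57.3 and 58.3 CPM). The 10 monocyte or macrophage markers summed to 22.8 and 26.6 CPM in FAP-like cells, 9 of them lower in the ATRA+agonist library and 1 at 0 there. In monocyte or macrophage-like cells themselves, Ccl7 was at 583 and 562 CPM and Ccl2 at 715 and 888 CPM, without a 2-fold difference. Tenocyte-like cells went both ways, as Ccl7 fell (log2 ratio -1.89, 95% interval -2.84 to -1.07) and Ccl2 rose to 245 from 82.5 CPM (log2 ratio 1.57, 95% interval 1.32 to 1.82). That rise rested on few cells, since 19 ATRA+agonist cells held its UMIs and the top 10 held 95.2% of them.

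Ccl12 and Ccl8, the other ligands of this group, were macrophage transcripts. Ccl12 had 97.6% of its UMIs in monocyte or macrophage-like cells, at 244 and 487 CPM (log2 ratio -0.997, 95% interval -1.13 to -0.87, and from -1.20 to -0.37 over the alternatives), just short of a fall by the 2-fold rule. Ccl8, which also binds Ccr8, was at 136 and 241 CPM there (log2 ratio -0.82, 95% interval -1.001 to -0.64). In FAP-like cells Ccl8 was at 23.3 and 18.4 CPM (log2 ratio 0.34, 95% interval 0.092 to 0.59), while Ccl12 had 1 UMI in each library.

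Of the inflammatory CC ligands, which act on Ccr1 among other receptors, 4 were made mainly by monocyte or macrophage-like cells and Ccl5 mainly by unnamed cluster 12, which joins T or NK cells and mast cells. In monocyte or macrophage-like cells Ccl6 was at 857 and 1253 CPM (log2 ratio -0.55, 95% interval -0.62 to -0.47), Ccl4 at 867 and 1097 CPM (log2 ratio -0.34, 95% interval -0.41 to -0.26), Ccl9 at 437 and 461 CPM (log2 ratio -0.08, 95% interval -0.19 to 0.03) and Ccl3 at 434 and 371 CPM (log2 ratio 0.23, 95% interval 0.11 to 0.35). None of the 4 passed the 2-fold rule there. Dendritic-like cells held Ccl6 at 964 and 945 CPM and Ccl9 at 452 and 469 CPM. In unnamed cluster 12, Ccl5 fell from 7399.7 to 3546 CPM (log2 ratio -1.06, 95% interval -1.11 to -1.01), Ccl4 from 859 to 162 CPM (log2 ratio -2.41, 95% interval -2.61 to -2.21) and Ccl3 from 134 to 58.99 CPM (log2 ratio -1.18, 95% interval -1.59 to -0.77). This cluster had 309 ATRA+agonist and 102 DMSO vehicle cells.

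Outside their main source, Ccl5 rose in dendritic-like cells from 48.1 to 407 CPM (log2 ratio 3.08, 95% interval 2.79 to 3.39) and in MuSC-like cells (log2 ratio 4.83, 95% interval 3.42 to 6.73). A UMI of Ccl5 was found in 23 and 10 cells of the dendritic-like class and in 2 and 4 cells of the MuSC-like class, so that few cells carried these rises. Ccl4 rose in B cell-like cells (log2 ratio 2.90, 95% interval 0.37 to 8.22), on 78 and 1 UMIs in 5 and 1 cell, and with putative doublets kept this turned into a fall (log2 ratio -3.64, 78 and 121 UMIs). In neutrophil-like cells, Ccl4 fell (log2 ratio -2.59, 95% interval -3.38 to -1.90) and Ccl3 fell (log2 ratio -1.31, 95% interval -1.91 to -0.76), of which Ccl3 was at -0.14 with doublets kept.

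Of the interferon-induced ligands of Cxcr3, which attract activated T and NK cells, Cxcl9 was mainly endothelial and Cxcl10 spread over many classes. In endothelial-like cells Cxcl9 fell from 384 to 190.3 CPM (log2 ratio -1.01, 95% interval -1.11 to -0.92) and Cxcl10 from 135 to 49.99 CPM (log2 ratio -1.44, 95% interval -1.62 to -1.26). A UMI of Cxcl9 was present in 20.8% and 34.7% of the cells, and after thinning to 1000 UMIs in 11.7% and 19.6%, while in MuSC-like cells it was 0.244% and 0% (0 of 531 cells, which allows up to 0.565%) at a median depth of 7432 and 6463 UMIs. In FAP-like cells, which held most UMIs of Cxcl10 (28.2%), it was at 65.8 and 76.9 CPM and Cxcl9 at 61.9 and 61.1 CPM.

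The endothelial falls of Cxcl9 and Cxcl10 were not matched within the clusters that hold most of their UMIs. Cxcl9 was at 559.6 and 591 CPM in cluster 2 (log2 ratio -0.08), 644 and 793 CPM in the venous cluster 22 (log2 ratio -0.30) and 179.7 and 113 CPM in cluster 0, where it was higher in the ATRA+agonist library (log2 ratio 0.67). Cxcl10 was at 622 and 597 CPM in cluster 22, 100.3 and 159.7 CPM in cluster 2 and 30.1 and 21.9 CPM in cluster 0, and it fell in the arterial cluster 14, to 11.7 from 59.7 CPM. The libraries filled these clusters differently, with 1573 and 667 cells in cluster 0, 73 and 975 in cluster 2, 163 and 169 in cluster 14, and 45 and 89 in cluster 22. Cluster 2 is led by interferon-response genes, so cluster and interferon response cannot be told apart. Outside this class, Cxcl9 and Cxcl10 both fell within the unnamed cluster 3 and within the unnamed cluster 13 (below).

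The list of 30 interferon-response genes moved with Cxcl9 and Cxcl10 in endothelial-like cells. 14 of the 30 fell and none rose, with a median log2 ratio of -0.87 against 0.08 over all genes compared. Gbp2, a GTPase induced by interferon, was at 183 and 1088 CPM, and Cd274, which encodes the checkpoint ligand PD-L1, at 209 and 875 CPM. Gbp7 (236 and 735 CPM), Psmb8 (289.96 and 643 CPM), Igtp (88.4 and 452 CPM) and Gbp4 (128 and 439 CPM) fell as well. Within cluster 0 the log2 ratio of Gbp2 was -0.36 and that of Cd274 -0.30, and within cluster 2 they were -1.35 and -0.89.

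**Figure D2:**
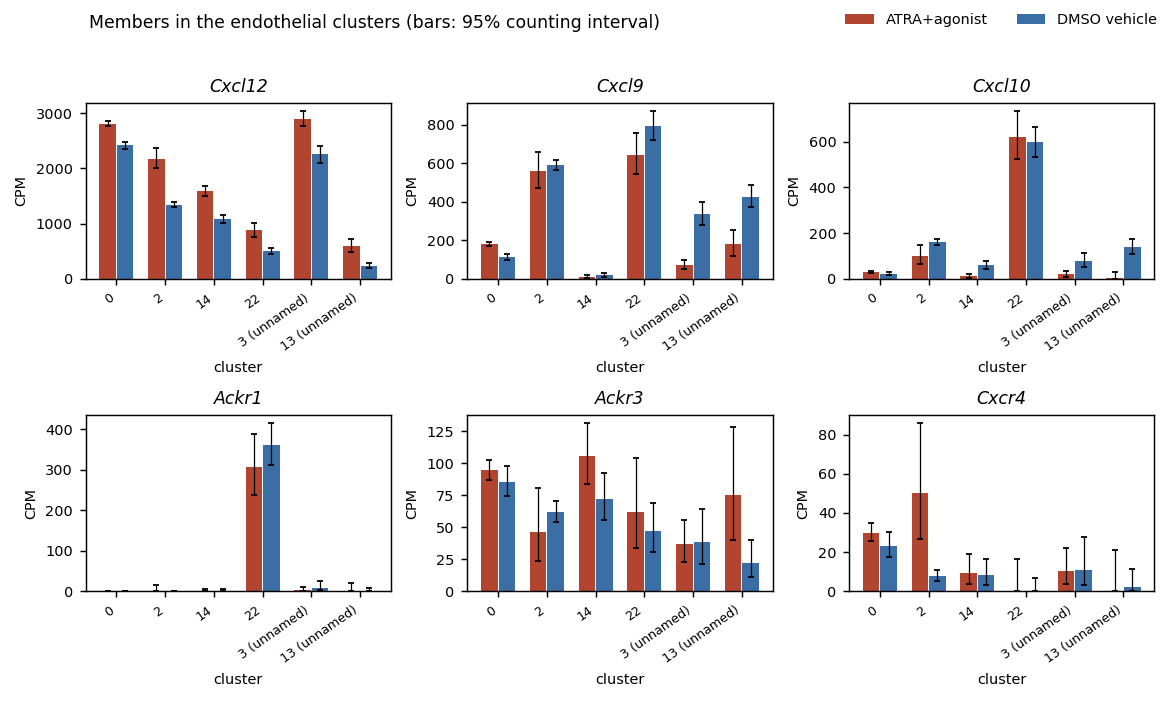
Levels (CPM) of 6 members in the endothelial clusters of the ATRA+agonist library (red) and the DMSO vehicle library (blue), where bars start at 0 and lines are 95% counting intervals. Cxcl12 is higher in the red library in each cluster, and Ackr1 stands in cluster 22. Cxcl9 is not lower in the red library in cluster 0 (179.7 and 113 CPM) but is lower in the unnamed clusters 3 and 13.

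Cxcl9 and Cxcl10 differed in other classes too. In dendritic-like cells Cxcl10 fell from 227 to 102 CPM (log2 ratio -1.16, 95% interval -1.36 to -0.96) and Cxcl9 rose from 22.8 to 54.3 CPM (log2 ratio 1.25, 95% interval 0.78 to 1.74). There, 5 of 28 interferon-response genes that could be compared rose and none fell, with a median log2 ratio of 0.38 against 0.01 over all genes. In monocyte or macrophage-like cells Cxcl10 was at 134 and 128 CPM.

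The lymphoid ligands, which organize B and T cells, came from different classes. Cxcl13 (chr5:95956951-95961068, plus strand), the ligand of the B cell receptor Cxcr5, had 95.1% of its UMIs in FAP-like cells, where it fell from 71.04 to 21.5 CPM (log2 ratio -1.72, 95% interval -1.92 to -1.53). It was found in 48 and 80 cells, 3.74% and 5.11% of the class, and the 10 cells with most UMIs held 75.5% and 58.8% of them. Its level was 15.2 and 125 CPM in cluster 5 and 56.5 and 126 CPM in cluster 7. Ccl19, a ligand of Ccr7, was at 36.1 and 47.1 CPM in FAP-like cells (log2 ratio -0.38, 95% interval -0.56 to -0.21) and at 101.2 and 147 CPM in MuSC-like cells, without a 2-fold difference. Ccl21a, the Ccr7 ligand of lymphatic vessels, fell in the lymphatic-marker cluster 13 (log2 ratio -7.10, 95% interval -12.41 to -4.61), from 390 UMIs in 5 cells to 1 UMI, but this depends on the doublet step (below).

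The membrane-bound ligands were Cxcl16, the ligand of Cxcr6, and Cx3cl1 (fractalkine), the ligand of Cx3cr1. Cxcl16 was at 243 and 201 CPM in monocyte or macrophage-like cells (log2 ratio 0.27, 95% interval 0.11 to 0.43) and at 114 and 109.8 CPM in dendritic-like cells. Cx3cl1 was at 30.1 and 38.5 CPM in endothelial-like cells (log2 ratio -0.35, 95% interval -0.62 to -0.09), highest in the arterial cluster 14 with 80.8 and 97.6 CPM. Neither passed the 2-fold rule in its main source.

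Dendritic-like cells held the ligands of Ccr4, Ccl17 and Ccl22. Ccl17 fell from 76.8 to 26.3 CPM (log2 ratio -1.55, 95% interval -1.93 to -1.17), on 94 and 158 UMIs in 18 and 20 cells, and Ccl22 was at 63.5 and 42.8 CPM (log2 ratio 0.57, 95% interval 0.21 to 0.94). Over the alternatives, the log2 ratio of Ccl17 ran from -2.07 to -0.59, short of the 2-fold rule with a mitochondrial limit of 10%, and that of Ccl22 from -1.30 to 1.47, so that its direction was not settled. Xcl1, made by NK cells and CD8 T cells, fell in unnamed cluster 12 (log2 ratio -2.61, 95% interval -2.94 to -2.29), on 122 and 242 UMIs, and its receptor Xcr1, a mark of cross-presenting dendritic cells, was at 45.03 and 51.99 CPM in dendritic-like cells (log2 ratio -0.21, 95% interval -0.57 to 0.16). Ccl25 and Ccl27a, known from gut and skin, were low, at 17.1 and 20.02 CPM and at 12.4 and 10.7 CPM in FAP-like cells.

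**Figure D3:**
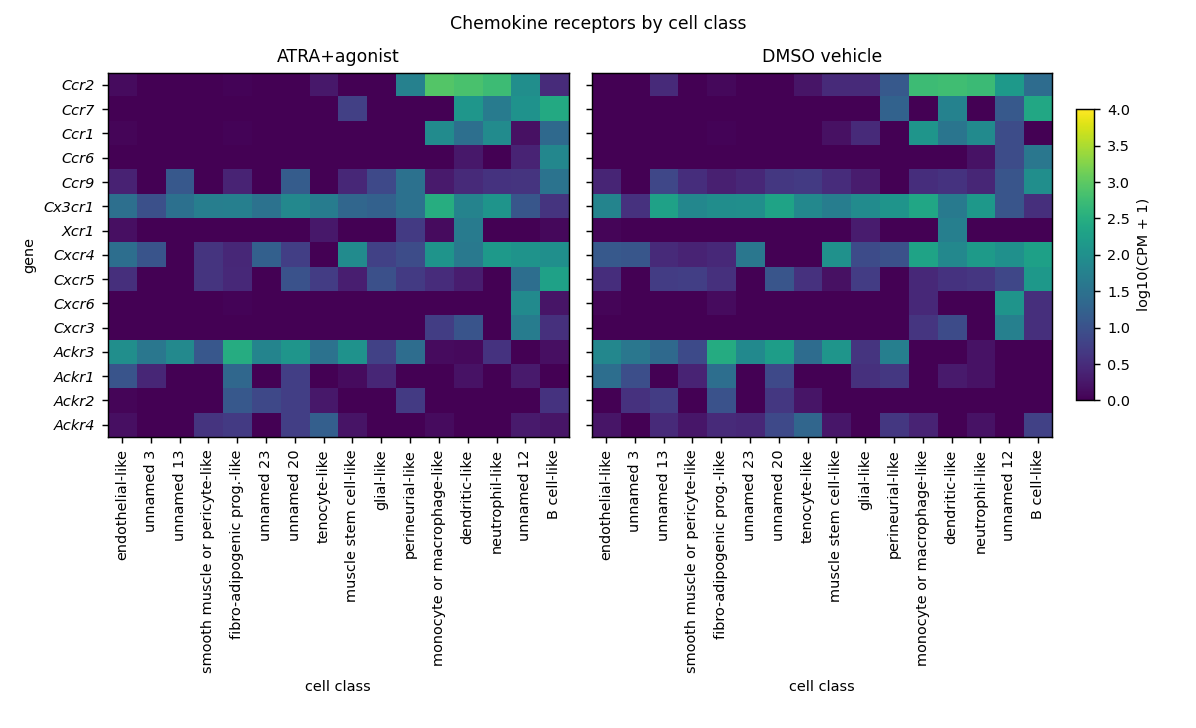
Levels of 15 chemokine receptors with at least 100 UMIs, as log10(CPM + 1), in each cell class of the ATRA+agonist library (left) and the DMSO vehicle library (right). Ccr2 and Ccr1 stand in the myeloid columns, Ccr7, Ccr6, Ccr9 and Cxcr5 in the B cell-like column, Cxcr6 and Cxcr3 in unnamed cluster 12, and Ackr3 in the FAP-like column.

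Among the CC receptors, Ccr2 and Ccr1 were myeloid. Ccr2, the receptor of Ccl2, Ccl7 and Ccl12, was at 855 and 559 CPM in monocyte or macrophage-like cells (log2 ratio 0.61, 95% interval 0.52 to 0.71) and at 701 and 595 CPM in dendritic-like cells. After thinning to 1000 UMIs, 47.8% and 36.6% of monocyte or macrophage-like cells had a UMI of Ccr2, and without thinning 76.2% and 65.1% had one. Endothelial-like cells, which should lack it, had 0.0543% and 0% (0 of 1894 cells, which allows up to 0.158%) after thinning. Their median depth was 3425 and 3585 UMIs against 9796 and 8514. Ccr1 was at 85.2 and 121 CPM in monocyte or macrophage-like cells (log2 ratio -0.51, 95% interval -0.75 to -0.27). Neither passed the 2-fold rule there.

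B cell-like cells (647 and 72) carried Ccr7, Ccr6, Ccr9 and Cxcr5. Ccr7, which leads lymphocytes to lymph nodes, was at 267 and 249.9 CPM (log2 ratio 0.10, 95% interval -0.20 to 0.41), Cxcr5 at 194 and 136 CPM (log2 ratio 0.51, 95% interval 0.11 to 0.93) and Ccr6, the receptor of Ccl20, at 70.6 and 37.1 CPM (log2 ratio 0.93, 95% interval 0.18 to 1.78). Ccr9, the receptor of Ccl25, fell from 94.03 to 32.1 CPM (log2 ratio -1.55, 95% interval -2.08 to -0.99), with its UMIs in 11 and 5 cells. Its log2 ratio was 0.081 where each cell was assigned by its own marker UMIs instead of its cluster. Ccr9 also overlaps Gm17200 on the same strand, so that its count is uncertain. Ccr1 had 95 and 0 UMIs in B cell-like cells, at least 3.02-fold higher where 0 is set to 3 counts. 87 of the Ccr1 UMIs lay in cluster 25, led by Cacna1e, Il5ra and Mzb1, with 82 cells from ATRA+agonist and 0 from DMSO vehicle.

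Ccr7 rose in classes other than B cells. In dendritic-like cells it went from 58.8 to 124 CPM (log2 ratio 1.08, 95% interval 0.79 to 1.38), in 23 and 10 cells, and in unnamed cluster 12 from 12.01 to 109 CPM (log2 ratio 3.18, 95% interval 2.17 to 4.41). Cxcr5 rose in unnamed cluster 12 as well (log2 ratio 2.16, 95% interval 0.72 to 4.08), where the 8 B cell markers summed to 89.2 and 54.03 CPM.

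Of the CXC receptors, Cxcr4, the receptor of Cxcl12, was the most widespread. It was at 116 and 207 CPM in monocyte or macrophage-like cells (log2 ratio -0.83, 95% interval -1.03 to -0.64), 142 and 149 CPM in neutrophil-like, 98.9 and 188 CPM in B cell-like and 84.6 and 105 CPM in MuSC-like cells. In endothelial-like cells Cxcr4 rose from 12.2 to 27.2 CPM (log2 ratio 1.16, 95% interval 0.80 to 1.54), in 146 and 75 cells. Within cluster 0 it was at 29.7 and 23.1 CPM and within cluster 2 at 50.2 and 7.62 CPM, so the level in cluster 0 differed less than that of the class. After thinning to 1000 UMIs, 2.60% and 1.27% of endothelial-like cells had a UMI of Cxcr4, against 0.156% and 0.128% of FAP-like cells at median depths of 3425 and 3585 and 9899 and 7944 UMIs. Cxcr6 and Cxcr3, receptors of activated T and NK cells, were at 79.9 and 119 CPM (log2 ratio -0.57, 95% interval -0.96 to -0.16) and 46.3 and 54.03 CPM in unnamed cluster 12. That cluster joins T or NK cells and mast cells. For the kept cells in the clusters found with doublets, Cxcr6 fell in T or NK cell-like cells (log2 ratio -1.17, 95% interval -1.61 to -0.73). The mast cell-like cells (37 and 5) held 63 and 0 of its UMIs.

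Cx3cr1, the receptor of fractalkine, was highest in monocyte or macrophage-like cells, at 315 and 232 CPM (log2 ratio 0.44, 95% interval 0.29 to 0.59). It was counted in most other classes too. It was at 60.4 and 41.8 CPM in dendritic-like cells (log2 ratio 0.53), and lower in the ATRA+agonist library at 52.8 and 90.99 CPM in FAP-like cells (log2 ratio -0.79, 95% interval -0.92 to -0.65), 27.8 and 63.5 CPM in endothelial-like cells (log2 ratio -1.19, 95% interval -1.44 to -0.95) and 20.2 and 47.8 CPM in MuSC-like cells (log2 ratio -1.25, 95% interval -1.67 to -0.84). The endothelial-like and MuSC-like values fell by the 2-fold rule. In glial-like cells Cx3cr1 fell from 85.1 to 16.7 CPM (log2 ratio -2.35, 95% interval -3.44 to -1.44), and the 10 monocyte or macrophage markers summed to 122 and 2095 CPM there. The annotated span of Cx3cr1 (chr9:119901616-120069879, minus strand, GENCODE M21 on GRCm38) holds Gorasp1, Csrnp1 and Xirp1 on the same strand, so that its UMIs outside myeloid cells are uncertain.

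The atypical receptors were stromal and vascular. Ackr3, which takes up Cxcl12, was at 299.98 and 285 CPM in FAP-like cells (log2 ratio 0.07, 95% interval 0.01 to 0.14), highest in the Pi16-led cluster 7 with 668 and 667 CPM, and at 92.7 and 69.7 CPM in endothelial-like cells. Ackr2, which degrades inflammatory CC chemokines, was at 11.7 and 9.28 CPM in FAP-like cells and 44.5 and 31.9 CPM in cluster 7. Ackr4, which takes up Ccl19, Ccl21 and Ccl25, was at 15.2 and 19.9 CPM in tenocyte-like cells. Ackr1, the Duffy antigen receptor of venules, was at 53.7 and 68.9 CPM in FAP cluster 7 and 307 and 361 CPM in the venous cluster 22. In the endothelial-like class Ackr1 fell from 26.5 to 10.00 CPM (log2 ratio -1.40, 95% interval -1.82 to -1.002), in 10 and 43 cells, while within cluster 22, with 45 and 89 cells, its log2 ratio was -0.24. With putative doublets kept, the class held 32.3 and 54.2 CPM (log2 ratio -0.74), and the call was lost. Ackr1 overlaps Cadm3 on the same strand.

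Of 32 textbook pairs of ligand and receptor, 19 had at least 100 UMIs of both. In 3 of the 19, Ccl2 and Ccr2, Ccl12 and Ccr2, and Ccl3 and Ccr1, the same class (monocyte or macrophage-like) held most UMIs of ligand and receptor. In the other pairs source and receiver differed, as for Cxcl12 (endothelial-like) with Ackr3 (FAP-like), for Cxcl13 (FAP-like) with Cxcr5 (B cell-like), and for Cxcl9 (endothelial-like) with Cxcr3 (unnamed cluster 12). Transcript levels do not show that a ligand reached its receptor.

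Of the 43 members with at least 100 UMIs, each compared in the class that holds most of its UMIs, 0 rose and 8 fell (Cxcl9, Ccl5, Ccl7, Ccl17, Ccr9, Cxcl13, Xcl1 and Ccl21a). The counting interval lay above 0 for 8 members, below 0 for 25 and held 0 for 10. The share over all genes, each in its own main class, was not counted, so these counts have no background. Of all genes compared, 2.97% fell in FAP-like, 2.13% in endothelial-like, 1.6% in dendritic-like and 7.28% in B cell-like cells. In unnamed clusters 12 and 13 it was 4.27% and 5.96%. The fall of Ccl21a turned with doublets kept (below), and that of Ccr9 was lost with own-marker classes. The members nearest to the 2-fold limit were Cxcl9 (-1.01) on one side and Ccl12 (-0.997) on the other.

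**Figure D4:**
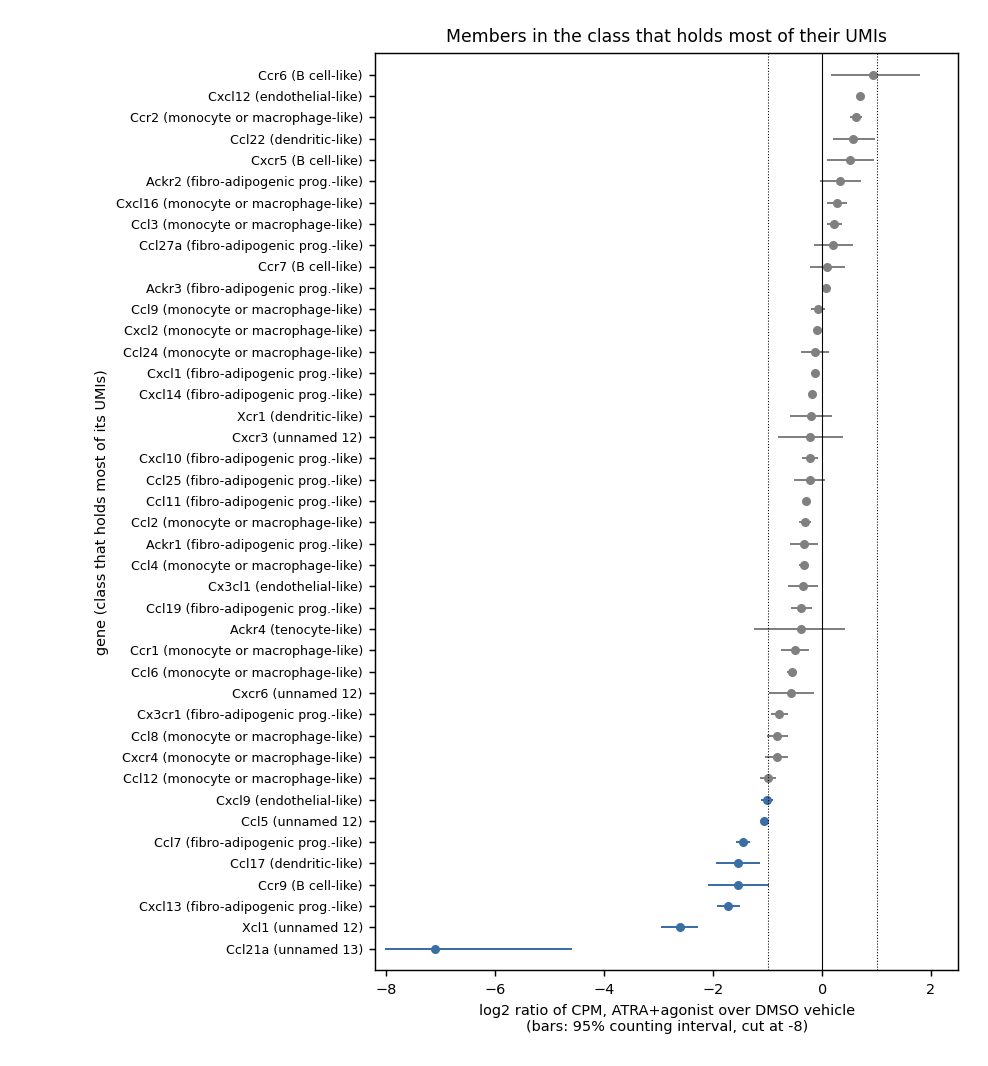
Log2 ratio of CPM (ATRA+agonist over DMSO vehicle) of 42 members with at least 100 UMIs, each in the class that holds most of its UMIs, with 95% counting intervals as bars and dotted lines at 2-fold. The 8 members in blue, from Cxcl9 (-1.01) down to Ccl21a (-7.10), fell, and the highest value is that of Ccr6 (0.93).

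Over all 15 classes compared, 242 pairs of member and class had enough UMIs. 39 of them rose (16.1%) and 41 fell (16.9%), against 2.82% and 4.44% of such pairs over all genes. Members are often low and made by few cells, and in 60 of the 80 pairs that rose or fell more than 90% of the UMIs of at least 1 library lay in 10 cells. 16 of the 80 pairs had 20 or more cells with a UMI in both libraries, of which 3 rose and 13 fell. This minimum of cells was applied only to pairs that had risen or fallen. The share of pairs over all genes that rose or fell under it was not counted, so counts under it have no background. Without the perineurial-like, neutrophil-like and unnamed clusters, 9 classes and 159 pairs remained, of which 12 rose (7.55%) and 19 fell (11.9%), against 1.97% and 2.99% over all genes. 11 of these 31 had 20 or more cells with a UMI in both libraries, namely the rise of Cxcr4 and the falls of Cxcl9, Cxcl10 and Cx3cr1 in endothelial-like cells, of Ccl2, Ccl7, Cxcl2 and Cxcl13 in FAP-like cells, of Cxcl10 in dendritic-like cells, of Cx3cr1 in MuSC-like cells and of Ccl11 in smooth muscle or pericyte-like cells.

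By class, the share of all genes that rose or fell differed widely. In endothelial-like cells 1 of 19 members rose and 4 fell, against 1.85% and 2.13% of all genes. FAP-like cells had 0 of 27 members up and 4 down (0.971% and 2.97% of all genes), and smooth muscle or pericyte-like cells 0 of 11 up and 2 down (1.69% and 2.29%). For MuSC-like cells the counts were 1 up and 2 down of 16 (2.12% and 1.54%), for tenocyte-like cells 1 up and 1 down of 14 (1.55% and 3.54%), and for glial-like cells 1 up and 2 down of 9 (2.63% and 4.46%). In monocyte or macrophage-like cells 1 of 28 rose (Ccl27a, 18 and 5 UMIs) and 1 fell (Cxcl13, 5 and 39 UMIs), against 1.51% and 1.75%. Dendritic-like cells had 4 of 25 up and 2 down (2.17% and 1.6%), and B cell-like cells 3 of 10 up and 1 down (3.86% and 7.28%).

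The remaining groups had fewer or shallower cells. Of 21 members in perineurial-like cells (148 and 171 cells) 10 rose and 5 fell, where 5.91% and 30% of all genes did. Among the rises were Ccl8 (395 and 69.3 CPM, log2 ratio 2.51), Ccl6 (2.19), Ccl19 (2.14) and Ccl7 (1.13), and among the falls Ccl2 (127 and 986 CPM, log2 ratio -2.96), Cxcl2 (-3.57), Cxcl9 (-3.10), Cxcl1 (-1.72) and Cx3cr1 (-1.96). For the kept cells in the clusters found with doublets (145 and 170 perineurial-like cells), the log2 ratio of Ccl7 was -0.14 and the rises of Ccl3 (2.52), Ccl4 (3.91), Ccl9 and Ccr2 were lost as well, with Ccl3 at -0.19 and Ccl4 at -0.092, while those of Ccl8 (2.64), Ccl6 (2.08) and Ccl19 (2.22) stayed. The 10 monocyte or macrophage markers summed to 8544 and 1557 CPM in this class, all 10 higher in the ATRA+agonist library and none at 0, and their part in these differences was not tested.

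The neutrophil-like class (60 and 187 cells) was cluster 17, led by S100a8, S100a9 and Chil3, in which 7 of 8 neutrophil and 5 of 10 monocyte or macrophage markers were raised. When putative doublets were kept and clustered, 4 and 20 kept cells were neutrophil-like, and a monocyte or macrophage-like cluster of 64 and 155 cells led by Plac8, Chil3 and Hp stood apart, so that the values of cluster 17 are not those of neutrophils alone. There, 6 of 18 members rose and 3 fell, against 8.77% and 3.52% of all genes. Cxcl10 rose (log2 ratio 4.02, 95% interval 3.60 to 4.46), with its 194 and 61 UMIs in 7 and 18 cells, as did Cxcl9 (2.18). Of the interferon-response genes, 10 of 27 compared rose and none fell in this class, with a median log2 ratio of 0.60 against -0.0039 over all genes. Cxcr2, the receptor of Cxcl1 and Cxcl2 on neutrophils, fell on 2 and 66 UMIs (log2 ratio -2.69, 95% interval -5.77 to -0.78). The 8 neutrophil markers summed to 16086 and 11497 CPM and the 10 monocyte or macrophage markers to 11553 and 12583 CPM in these cells.

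In unnamed cluster 12, 4 of 22 members rose and 5 fell (3.61% and 4.27% of all genes), Ccl7 among the rises (1.17, 10 and 2 cells). Mast cell-like cells (37 and 5 kept cells in the clusters found with doublets) held 161 and 24 UMIs of Ccl7. Its level there was 620 and 1157 CPM (log2 ratio -0.90), opposite to the rise, in too few cells for a call. The part of the mast cell share in the rise of Ccl7 was not tested. Of 6 members in the lymphatic-marker cluster 13, 2 rose and 4 fell (3.95% and 5.96%), the falls being Ccl21a, Cxcl9 (-1.26), Cxcl10 (-4.58) and Cx3cr1 (-2.72). Unnamed cluster 20, led by Car3 and Cfd, had 5 of 10 up and 1 down (4.32% and 5.54%). Its rises included Cxcl10 (4.32, 3 and 3 cells), Ccl11 (1.41), Cxcl9 (1.35) and Cxcl1 (1.27), and its fall was Cx3cr1 (-1.50). In the endothelial cluster 3 of low depth, 0 of 6 rose and 4 fell (3.25% and 2.42%), of which Cxcl9 had most UMIs (73.9 and 335 CPM, log2 ratio -2.18).

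The other lists of the pathway differed between classes in how many genes passed the 2-fold rule. Of 16 genes of chemokine receptor signaling, 0 of 12 compared rose or fell in FAP-like cells and 0 of 16 in monocyte or macrophage-like cells, while in endothelial-like cells 2 of 11 fell, Ptk2b (1.16 and 3.17 CPM) and Gng2 (1.30 and 3.31 CPM). Of 23 inducers of chemokine transcription, 0 of 20 compared passed the rule in FAP-like cells and 0 of 22 in monocyte or macrophage-like cells. Interferon-response genes of FAP-like cells, where Ccl2, Ccl7 and Cxcl13 fell, held 0 of 29 past the rule, against 16 of 30 that fell in cluster 13 and 19 of 30 in cluster 3. In perineurial-like cells 2 of 14 inducers rose and 6 fell, where 5.91% and 30% of all genes did. Of the genes that present chemokines or hold leukocytes to the vessel wall, 1 of 10 fell in endothelial-like cells, the adhesion molecule Vcam1 (43.9 and 105 CPM). The relatives of chemokines outside the naming rule, such as Pf4 and Mif, held 0 of 7 past the rule in endothelial-like and 0 of 7 in FAP-like cells. In B cell-like cells 2 of 4 fell, Mif (107 and 225 CPM) and Dpp4, a protease that trims chemokines (42.9 and 161 CPM), and in perineurial-like cells 4 of 6 rose (Pf4, Ppbp, Cmtm7 and Mif).

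The step that removes putative doublets took out cells that carry rare members. It removed 560 and 564 cells. With these cells kept and clustered, 119 of 143 neutrophil-like cells (83.2%), 27 of 42 lymphatic endothelial-like cells (64.3%) and 39 of 81 mast cell-like cells (48.1%) turned out to be among the removed. Of Ccl21a, 438 of 4453 deposited UMIs were kept, 8 and 430 by library, and the putative doublets held 3131 and 346. With doublets kept, lymphatic endothelial-like cells had 3131 and 736 UMIs in 29 and 13 cells, a level of 16048 and 9705 CPM (log2 ratio 0.73), so that the fall of Ccl21a in cluster 13 turned in direction.

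Of Cxcr2, 83 of 512 UMIs were kept, and with doublets kept its level in neutrophil-like cells was 701 and 419.6 CPM (log2 ratio 0.74), again opposite to the value above. Of Xcl1, 414 of 918 were kept, and in T or NK cell-like cells, which form a class of their own once doublets are kept, it was at 283 and 366 CPM (log2 ratio -0.37). Ccl4 had a log2 ratio of 0.25 in that class, against -2.41 in unnamed cluster 12, and Ccl5 one of -1.20. The kept cells of that class alone had log2 ratios of -2.51 for Xcl1, -2.81 for Ccl4 and -0.97 for Ccl5, the last short of the 2-fold rule. Of Ccl1, a ligand of Ccr8, 11 of 282 UMIs were kept. Of the 80 pairs that rose or fell, 49 had values in a class of the same name with doublets kept, of which 37 had the same call, 11 lost it and 1 (Ccl4 in B cell-like cells) had the opposite one. Those lost were Ackr1 in endothelial-like, Cxcl2 in FAP-like, Cxcl14 in glial-like and Ccl27a in monocyte or macrophage-like cells, Cxcr2 and Ccl3 in neutrophil-like cells and Ccr2, Ccl3, Ccl4, Ccl7 and Ccl9 in perineurial-like cells. In monocyte or macrophage-like cells, Cxcl2 went from -0.09 to 0.35, Cxcr4 from -0.83 to -0.46 and Cxcl10 from 0.075 to 0.53. This class then also held the cluster led by Plac8, Chil3 and Hp (64 and 155 cells). Its kept cells alone had log2 ratios of 0.46 for Cxcl2, -0.57 for Cxcr4 and 0.94 for Cxcl10, so that the shifts were there without the doublets as well. Other values moved less, with log2 ratios of 0.65 for Cxcl12 and -1.04 for Cxcl9 in endothelial-like cells, and -1.52, -1.38 and -1.70 for Ccl2, Ccl7 and Cxcl13 in FAP-like cells.

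**Figure D5:**
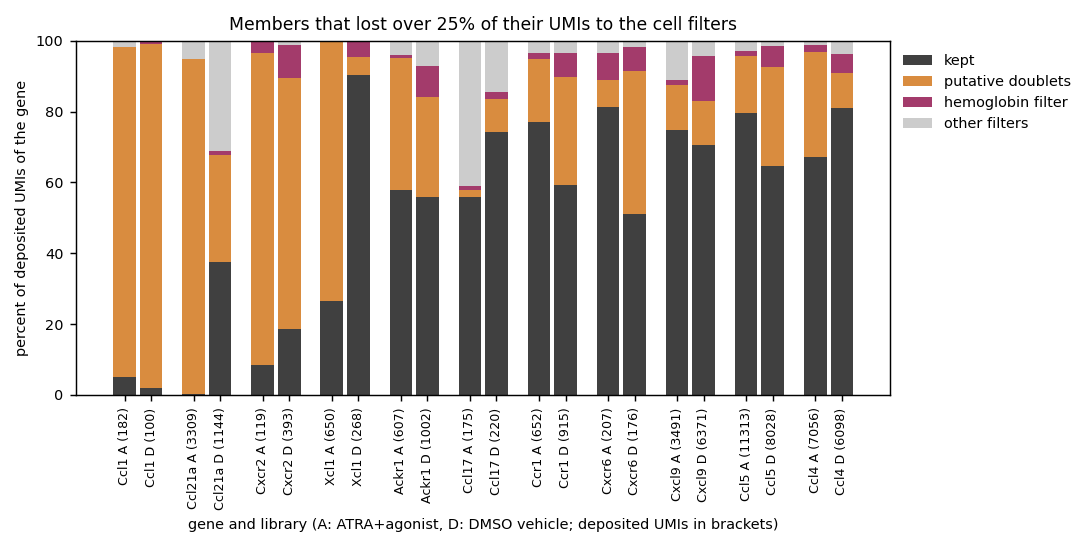
Percent of the deposited UMIs of each member that stood in kept cells, putative doublets and cells removed by other filters, for members that lost over 25% of their UMIs, with the ATRA+agonist (A) and DMSO vehicle (D) library side by side and the deposited UMIs in brackets. Ccl1, Ccl21a and Cxcr2 stood mainly in putative doublets, and Xcl1 did so in the ATRA+agonist library.

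Summed over all kept cells, levels mix the make-up of the libraries with the level per class. Ccr7 was at 44.2 and 5.92 CPM (log2 ratio 2.90), Cxcr5 had a log2 ratio of 2.57 and Ccr6 of 3.83, and the B cell-like class that carries them had 647 and 72 cells. Ccl5 was higher in the ATRA+agonist total (217 and 128 CPM, log2 ratio 0.76) although it fell within its main source. Cxcl12 was at 624 and 479.6 CPM (log2 ratio 0.38), and Cxcl9 and Cxcl13 were lower, with log2 ratios of -0.82 and -1.77.

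Barcodes under 300 genes (2428 and 7940) held the members at 482 and 352 CPM once hemoglobin was left out. Of their 15285433 and 52901998 UMIs, 556537 and 1818690 were not hemoglobin. Most of their RNA was thus that of red blood cells, so they are no clean measure of free RNA. Cxcl12 was at 135 and 83.03 CPM there, Cxcl14 at 70.1 and 47.8 CPM, Ccl7 at 14.4 and 7.15 CPM and Cxcl9 at 7.19 and 17.6 CPM. The part of free RNA in the levels of the classes was not tested, so these values are no limit for background. For the kept cells in the clusters found with doublets, Cxcl12 was at 3.54 and 19.1 CPM in B cell-like cells.

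The 11 members with 1 to 99 UMIs were given above only in part, and their UMIs over both libraries were as follows for Cxcr2 (83), Cxcl3 (67), Cxcl17 (62), Ccr4 (52), Cxcl5 (46), Ccr8 (38), Ccl26 (37), Ccr10 (29), Ccr3 (20), Ccl1 (11) and Ccl28 (7). Ccr3, the receptor of Ccl11, and Ccr4, the receptor of Ccl17 and Ccl22, were thus hardly detectable at this depth, although their ligands were abundant or clearly placed.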

How the data were processed

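The 2 libraries, ATRA+agonist and DMSO vehicle, were each made from hindlimb muscle of 2 pooled mice. The authors deposited unnormalized UMI counts for each barcode, from 10x Genomics 3-prime reads processed by Cell Ranger 7.2.0 on GRCm38. A UMI marks a molecule, so PCR copies do not add counts. Whether intronic reads were counted is not given in the sources used here. The labels also describe bulk libraries and tools for them, which were not used here.

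Cells were kept with 300 to 5000 genes, under 20% mitochondrial and under 0.25% hemoglobin beta UMIs, the limits that the authors describe. Doublets were removed by a rebuilt form of the authors' procedure (artificial doublets at 20% of the merged cells, neighbors of 1%, 7.5% of cells removed per library). Kept cells were scaled to 10000 counts, log-transformed and clustered on 2000 variable genes, 30 principal components and 20 neighbors (Louvain, resolution 0.8), without members, gene lists, mitochondrial, ribosomal and hemoglobin genes. A cluster was named, with the ending "-like", where at least 3 markers of a class had 10 UMIs and were 2-fold above all other cells (10 CPM added to both). It stayed unnamed where markers of another class led, or where its depth was low and no marker of the name led. Names may differ from those of the study.

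UMIs were summed per library and class. Intervals are exact (Poisson, Clopper-Pearson, or conditional on the summed count). A count of 0 was set to 3 counts. Shares of cells were also given with each cell thinned to 1000 UMIs. No test was run, as each group is 1 library and cells are no replicates. The calls were also run on Poisson counts simulated for endothelial-like cells. These lack the spread between cells and between mice, so they cannot show how reliable the calls are here. Gene positions came from GENCODE M21 and upstream sequences from RefSeq, both on GRCm38.

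Members, gene lists and comparisons were chosen with earlier results of these data known. Members with at least 100 UMIs were named, each in the class with most of its UMIs, and so were other pairs of member and class that rose or fell on at least 50 UMIs. Of the gene lists, at most 6 genes that rose or fell were named. Values of 1 member and of 1 gene of the lists are not reported here. Alternatives were other filters, doublet rates, resolutions, clustering genes, scaling and minimum counts, assignment by own markers, and all barcodes. Python 3.11.15 with numpy 2.4.6, scipy 1.17.1, pandas 2.3.3, scikit-learn 1.9.0 and python-igraph 0.11.9 was used, and figures were drawn with matplotlib 3.10.9.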

Additional observations from a re-analysis of the deposited data

Results flagged for a closer look

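Some members rose in 1 cell class and fell in another. Each direction comes from 1 pair of libraries, and the difference between classes was not tested. The log2 ratio of Ccl2 was -1.68 in FAP-like and 1.57 in tenocyte-like cells. For Ccl4 it was 2.90 in B cell-like and -2.59 in neutrophil-like cells, but with putative doublets kept the B cell-like value was -3.64, so that the opposite directions depend on the doublet step. Cxcl9 had -1.01 in endothelial-like cells, 1.25 in dendritic-like cells and 2.18 in neutrophil-like cells. Cxcl10 had -1.44 in endothelial-like and -1.16 in dendritic-like cells, and 4.02 in neutrophil-like cells. Cxcl14 had -3.36 in MuSC-like and 1.05 in glial-like cells, and the latter became -0.56 with doublets kept. Its levels in both classes lay under those in barcodes under 300 genes, hemoglobin left out. Of these log2 ratios, the values for Ccl2 and Cxcl9 in tenocyte-like, dendritic-like and neutrophil-like cells, and those for Ccl4, Cxcl10 in neutrophil-like cells and Cxcl14, had under 20 cells with a UMI in at least 1 library.

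The putative doublets that were left out of all comparisons held more UMIs of 4 members than the kept cells did, beside 1 UMI of Cxcr1 that no kept cell had. They held 3477 UMIs of Ccl21a, 489 of Xcl1, 384 of Cxcr2 and 267 of Ccl1, against 438, 414, 83 and 11 in the kept cells.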

How the results depend on the processing

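No paired analysis was possible because each group is 1 library. Of 869 values recomputed under the alternatives, 781 kept their sign. The number of pairs of member and class that rose (39) became 23 at a resolution of 1.6, 22 where each cell took the class of its own markers, 12 with each cell thinned to 1000 UMIs (137 pairs compared), and 12, with 19 falls in place of 41, without the perineurial-like, neutrophil-like and unnamed clusters, which was chosen after seeing the data. The other alternatives stayed within 1.5 times of both counts. With median-of-ratios scaling 37 rose and 44 fell. Ccl21a over all kept cells went from a log2 ratio of -5.78 to 1.99 without doublet removal and 2.28 over all barcodes, and Ccr9 in B cell-like cells from -1.55 to 0.081 with classes from each cell's own markers. Over 14 alternatives the log2 ratio of Cxcl9 in endothelial-like cells ran from -1.11 to -0.81, that of Cxcl12 from 0.59 to 0.71, and in FAP-like cells that of Ccl7 from -1.70 to -1.37 and that of Cxcl13 from -2.07 to -1.65. Of the 43 values in the class with most UMIs, 17 changed sign under at least 1 alternative. Of these, 7 were in monocyte or macrophage-like cells (Ccl2, Ccl4, Ccl6, Ccl8, Ccl9, Ccl24 and Cxcl2, none past 2-fold as reported). A further 4 were in FAP-like cells, 3 in dendritic-like cells, and 1 each in B cell-like cells, tenocyte-like cells and unnamed cluster 12. Ccl19 in FAP-like cells ran from -0.45 to 0.07, and Xcr1 in dendritic-like cells from -0.32 to 1.32. Cxcl9 in endothelial-like cells stood beyond 2-fold under some alternatives and short of it under others. Pooled mice, 1 library per group and classes of under 200 cells limit every ratio, and counting intervals do not show the spread between mice.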
